A study of Homo sapiens with 72 samples.

Results

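The immunoglobulin genes encode the variable and constant parts of antibodies. They were taken as all genes that GENCODE release 44 lists as V, D, J or C segments on chromosomes 14, 2 and 22, together with IGLL5, which starts between the V and the J-C segments of the lambda locus and overlaps IGLJ1 and IGLC1. This gave 192 of 62663 annotated genes, with 132 V, 27 D, 18 J and 14 C segments and IGLL5. Of these, 91 lie in the heavy chain locus IGH (chr14:105583731-106875071, hg38, minus strand), 50 in the kappa locus IGK (chr2:88857161-90235370) and 49 in the lambda locus IGL (chr22:22030934-22973034, plus strand, with 50 kb downstream of its last gene). The 2 others are kappa V segments displaced to another part of chromosome 2. A segment of the lists is a gene of the reference genome, and pseudogenes of the loci were not members.

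A V, a D and a J segment (V and J in light chains) are joined in B cell precursors by the RAG1 and RAG2 recombinase, which can remove the DNA between them. A mature B cell can then replace the IGHM constant gene by IGHG, IGHA or IGHE through class switching at repeats 5′ of each constant gene. Enhancers lie between the J and the C genes of IGH and IGK, and 3′ of the constant genes in all 3 loci. H3K4me3 marks active gene starts, H3K4me2 marks starts and enhancers, and H3K27me3 marks chromatin held silent by Polycomb proteins. IGLL5 is related to IGLL1, a surrogate light chain gene of precursor B cells, and its first exon lies upstream of IGLJ1 and IGLC1.

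The 3 marks were profiled by CUT&Tag, in which an antibody directs a transposase to marked chromatin, in 3 human cell lines. Raji is a Burkitt lymphoma line, a mature B cell tumour, and NALM6 and REH are B cell acute lymphocytic leukemia lines of precursor type. Each line was untreated or was kept with 1 nM bryostatin, a protein kinase C modulator, overnight by the labels and for a day by the study's methods, with 3 replicates for each line, treatment and mark, which makes 54 libraries with peak files. No allele or other agent distinguished the groups, and each line is 1 tumour cell population. The libraries made with control IgG were not analysed here.

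Peaks numbered 590 to 101702 per library, and in 48 libraries the signal steps gave the number of mapped reads, from 5.12 M to 47.9 M (median 18.8 M). Replicate 1 of NALM6 stood apart in all marks and both treatments. Its 6 files had another scaling, of unknown depth, and median peak lengths of 583 to 916 bp, so values were divided by each library's own median. Several NALM6 results, but not all, are also given without this replicate. In H3K27me3, Raji untreated replicate 1 had 819 peaks against 73265 in replicate 3, and depth moved with peak number in that group (5.12 M and 32.4 M reads). The lines were checked by H3K4me3 peaks within 1 kb of a gene start. Between 4 and 7 of 7 B lineage genes had such a peak in a library, against 0 to 1 of 5 T cell, 0 to 1 of 4 myeloid and 0 of 3 erythroid genes. Of 5 mature B genes, 3 to 5 had one in a Raji library, 0 to 2 in a NALM6 library and 1 to 2 in a REH library. MS4A1 had a peak in 6, 0 and 0 libraries of Raji, NALM6 and REH, while CD40 had one in 6, 2 and 3 and BCL6 in 6, 3 and 6. Of 3 plasma cell genes, 1 to 2 had a peak in a Raji library, 1 to 3 in a NALM6 library and 2 to 3 in a REH library. SDC1 had a peak in 0, 1 and 6 libraries of Raji, NALM6 and REH, PRDM1 in 3, 3 and 1 and XBP1 in 6 of each. Of 6 precursor B genes, 1 had a peak in every Raji library, 3 to 5 in a NALM6 library and 4 in every REH library. In the same order of lines IGLL1 had 0, 6 and 6, DNTT 0, 5 and 6, RAG2 0, 4 and 6 and VPREB1 0, 6 and 0, while RAG1 had 6 in each and CD34 was at 0 throughout.

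The sequences under the strongest signal are shown first, because the joining to constant stretch of IGH and the stretch 3′ of IGL carried peaks found in all lines. The window of the IGH stretch (chr14:105859826-105860125, minus strand, hg38) lies about 3.2 kb downstream of IGHJ6, at or close to the strongest H3K4me2 and H3K4me3 signal of most libraries, though not to that of H3K4me2 in NALM6. Capitals mark the pentamers GAGCT and GGGCT, of which this window held 37, covering 185 bases. The RefSeq promoter table (GRCh38.p14, 35116 windows of the same length) held at most 21 on either strand, with a median of 1, and 0 promoters reached as many. Such pentamer arrays form the switch region of IGHM, and reads from repeats can be placed wrongly. The strongest H3K4me2 signal 3′ of IGL lay 5.8 kb downstream of IGLC7 (chr22:22928676-22928975, plus strand), where capitals mark the middle 10 bases.
IGH between IGHJ6 and IGHM: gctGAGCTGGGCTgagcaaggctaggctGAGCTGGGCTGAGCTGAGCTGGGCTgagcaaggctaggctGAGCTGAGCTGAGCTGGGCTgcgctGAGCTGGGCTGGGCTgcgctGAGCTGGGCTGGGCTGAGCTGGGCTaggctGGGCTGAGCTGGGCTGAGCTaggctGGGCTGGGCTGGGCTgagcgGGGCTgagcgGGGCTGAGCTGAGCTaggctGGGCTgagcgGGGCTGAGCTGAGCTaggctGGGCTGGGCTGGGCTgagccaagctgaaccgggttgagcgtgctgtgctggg
IGL downstream of IGLC7: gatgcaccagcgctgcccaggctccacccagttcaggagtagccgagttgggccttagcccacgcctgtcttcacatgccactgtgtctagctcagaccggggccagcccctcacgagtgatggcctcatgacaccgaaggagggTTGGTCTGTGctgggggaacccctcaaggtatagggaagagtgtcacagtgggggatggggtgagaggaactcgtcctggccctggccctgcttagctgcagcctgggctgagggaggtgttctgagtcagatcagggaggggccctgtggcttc

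The starts of 3 V segments are shown because they carried H3K4me2 in every Raji library and differ in the octamer ATGCAAAT, the binding motif of POU2F1 and POU2F2. Windows run from 250 bases before to 50 after the annotated start, read from hg38 on the gene's strand, since the RefSeq table held none of the members. Capitals mark the octamer on either strand. IGHV4-31 starts within chr14:106349743-106350042 (minus strand), IGKV3-20 within chr2:89143111-89143410 (minus strand) and IGLV6-57 within chr22:22195549-22195848 (plus strand).
IGHV4-31 start: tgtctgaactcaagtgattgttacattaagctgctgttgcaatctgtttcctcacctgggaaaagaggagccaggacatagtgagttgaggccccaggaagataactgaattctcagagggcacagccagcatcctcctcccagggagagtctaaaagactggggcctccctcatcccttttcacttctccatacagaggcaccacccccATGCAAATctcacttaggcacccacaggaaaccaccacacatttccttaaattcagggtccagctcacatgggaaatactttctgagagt
IGKV3-20 start: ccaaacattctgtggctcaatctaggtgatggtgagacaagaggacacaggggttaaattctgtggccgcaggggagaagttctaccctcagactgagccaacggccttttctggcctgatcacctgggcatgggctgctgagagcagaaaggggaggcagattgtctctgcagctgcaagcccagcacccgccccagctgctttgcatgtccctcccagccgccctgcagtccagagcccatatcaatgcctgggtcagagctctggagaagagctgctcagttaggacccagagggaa
IGLV6-57 start: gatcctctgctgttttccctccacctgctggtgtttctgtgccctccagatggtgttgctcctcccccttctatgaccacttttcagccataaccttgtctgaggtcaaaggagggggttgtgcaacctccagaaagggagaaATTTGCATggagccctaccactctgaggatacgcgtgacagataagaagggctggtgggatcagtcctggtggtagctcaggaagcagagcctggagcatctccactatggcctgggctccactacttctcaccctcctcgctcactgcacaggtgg

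The octamer, searched on both strands, stood in 102 of 132 V starts (77.3%), in 0 of 14 C starts and in 1.77% of RefSeq promoters. By locus it stood in 87.8% of the IGH, 63.6% of the IGK and 81.1% of the IGL V starts, and IGKV3-20 had no exact match. Among the 21 V segments with an H3K4me2 peak in every Raji library, 18 held it (85.7%), and among the 70 with no peak in any Raji library 47 did (67.1%). These shares are descriptions of the sequence, and the near-identical V segments are not independent of each other.

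Of the 192 genes, 139 had a peak of some mark over the gene in at least 1 library and 53 had none in any. Raji carried H3K4me2 over the most immunoglobulin genes, with 41 to 80 genes per library (median 74), against 0 to 20 in NALM6 (median 15) and 2 to 13 in REH (median 7.5). As a share of the members this was 21.4% to 41.7% in Raji, where 20.4% to 29.6% of all annotated genes had an H3K4me2 peak, at most 10.4% in NALM6 (all genes 11.7% to 24.9%) and at most 6.77% in REH (all genes 23.6% to 31.2%). The share of the members was above that of all genes in 6 of 6 Raji libraries and in 0 of the 12 others, although the members were shorter, with a median length of 507 bp against 3621 bp. H3K4me3 covered 16 to 28 genes per Raji library (median 23.5), 2 to 14 per NALM6 library (median 8) and 1 to 4 per REH library (median 1). At 8.33% to 14.6% of the members in Raji, at most 7.29% in NALM6 and at most 2.08% in REH, this was below the share of all genes in every library, which was 22.1% to 24.9%, 11.2% to 24% and 18.9% to 26.4%. For H3K27me3 the lines overlapped, with 0 to 33 genes (Raji, median 13), 0 to 32 (NALM6, median 16.5) and 14 to 22 (REH, median 17.5), again below the share of all genes in every library. None of these shares is corrected for gene length. A shorter gene is less likely to overlap a peak, so the lower shares are not by themselves a lack of mark, and the part of length was not tested. A gene counted here can share its peak with a neighbour, as the 6 IGHJ genes did. A missing peak can be a missing mark, too few reads or a segment removed by V(D)J recombination, which cannot be told apart because copy number was not measured.

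**Figure D1:**
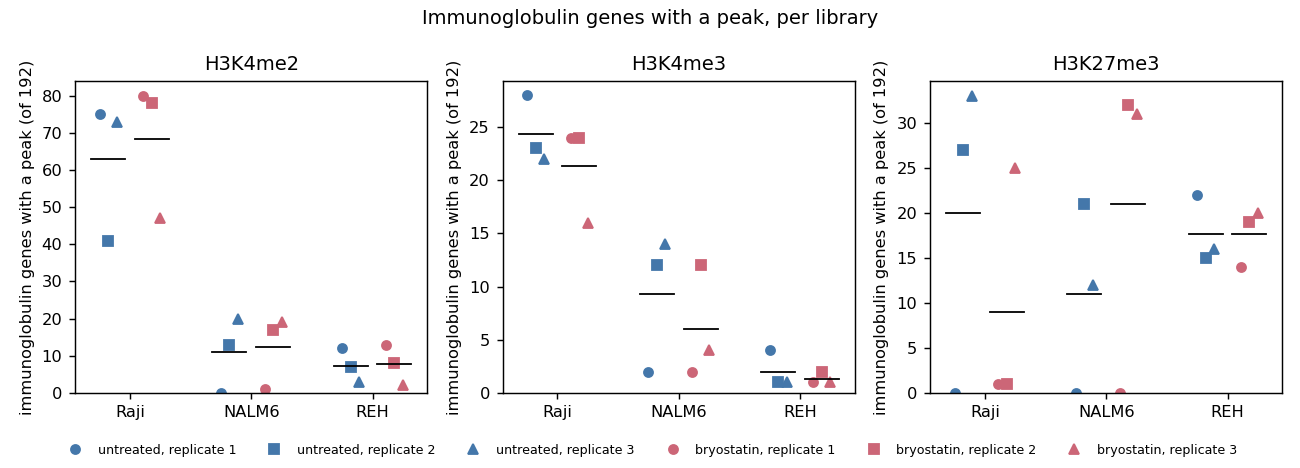
Number of the 192 immunoglobulin genes with a peak (y axis, genes per library) in Raji, NALM6 and REH (x axis) for each mark, with 1 point per library, shapes for replicates, colours for treatment and a bar at the mean of 3 libraries. Raji libraries lie at 41 to 80 genes for H3K4me2 and 16 to 28 for H3K4me3, above all libraries of the other lines, and NALM6 replicate 1 is low throughout.

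The 3 loci held 146 merged H3K4me2 regions, of which 95 were found in Raji libraries alone, 6 in NALM6 alone, 6 in REH alone and 1 in all 18 libraries. These were 65.1%, 4.11% and 4.11%, against 29.3%, 3.52% and 17.5% of all regions of the genome. Of 60 H3K4me3 regions, 34 were found in Raji alone, 13 in NALM6 alone, 2 in REH alone and 2 in all 18, which was 56.7%, 21.7% and 3.33% for the single lines, against 12.1%, 14.5% and 7.61%. With NALM6 replicate 1 left out, 28 of 140 H3K4me2 regions (20%) were called in all Raji and no NALM6 libraries, against 5.7% of all regions of the genome. In all Raji and no REH libraries were 31 of 140 (22.1%), against 2.8%. The opposite patterns held 3 of 140 (2.14%) for NALM6 against Raji, with a background of 5.59%, and 1 of 140 (0.714%) for REH against Raji, with a background of 7.11%. For H3K4me3, 10 of 54 regions (18.5%) were in all Raji and no NALM6 libraries, against 4.58%, and 9 of 47 (19.1%) were in all Raji and no REH libraries, against 3.55%. The reverse was seen in 1 of 54 (1.85%, background 1.47%) for NALM6 and in 0 of 47 (background 4.01%) for REH. Between the leukemia lines, 6 of 51 H3K4me2 regions (11.8%) were in all NALM6 and no REH libraries, against 2.27%, and 4 of 51 (7.84%) in all REH and no NALM6 libraries, against 7.47%. For H3K4me3 each pattern held 1 of 22 (4.55%), against 0.39% and 2.77%. The shares of regions present in Raji and missing in another line were above the background in these loci and those of the reverse were near or below it, and in H3K4me2 the share in NALM6 and not REH was also above it. No test was made of these shares.

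The stretch from IGHJ6 to IGHM, which holds the intronic enhancer Eμ and the IGHM switch repeats, was marked in all lines. An H3K4me3 peak lay there in 6 of 6 libraries of each line, and an H3K4me2 peak in 6 of 6 Raji, 5 of 6 NALM6 and 6 of 6 REH libraries. The H3K4me2 region (chr14:105849281-105865460) reached 9.65, 5.62 and 6.26 times the library's median peak in untreated Raji, 0, 11.7 and 16.1 in untreated NALM6, and 18.8, 19.4 and 21.9 in untreated REH. REH was thus highest and Raji lowest once NALM6 replicate 1, at 0, is set aside. The region common to Raji and REH (chr14:105855441-105865460) was at 4.35, 5.01 and 4.27 times the library's median region in Raji and at 12.5, 15.9 and 18.2 in REH, a log2 difference of -1.76 ± 0.14 (SE, n = 3 against 3, limma adjusted p = 2.7e-07).

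H3K4me3 over the same stretch (chr14:105852041-105865460) was strongest in NALM6. Untreated NALM6 had 2.68, 40.4 and 46.4 median peaks, untreated Raji 15.6, 7.18 and 7.84, and untreated REH 9.26, 7.02 and 13.1. Replicates 2 and 3 of NALM6 lay above every other untreated library, and replicate 1 lay below them all. IGHM itself, the constant gene of IgM, had an H3K4me2 peak in 6 Raji, 5 NALM6 and 4 REH libraries and an H3K4me3 peak in 4, 4 and 1, mostly as the edge of this stretch, and no H3K27me3 peak in any. With all replicates, limma did not call the difference (Raji minus NALM6 log2 -1.15, adjusted p = 0.395, NALM6 minus REH 0.81, adjusted p = 0.589). Without NALM6 untreated replicate 1 it did, at -2.37 (adjusted p = 8.8e-06) and 2.02 (adjusted p = 3.59e-05), so this one library decided the call. Raji and REH differed by -0.33 (adjusted p = 0.229).

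The position of the strongest signal within the stretch also differed by line for H3K4me2. It lay 3.02 to 3.28 kb downstream of IGHJ6 in Raji libraries and 3.16 to 3.24 kb in those of REH, at or close to the switch repeats printed above, and 5.83 to 5.87 kb in the 5 NALM6 libraries with a peak. These ranges of NALM6 and the others did not overlap. For H3K4me3 the median position was 3.17 kb in Raji, 3.18 kb in REH and 3.19 kb in NALM6, where it ranged from -0.757 to 3.24 kb. A signal maximum was taken as the authors' peak files give it, in bins of 10 bp.

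**Figure D2:**
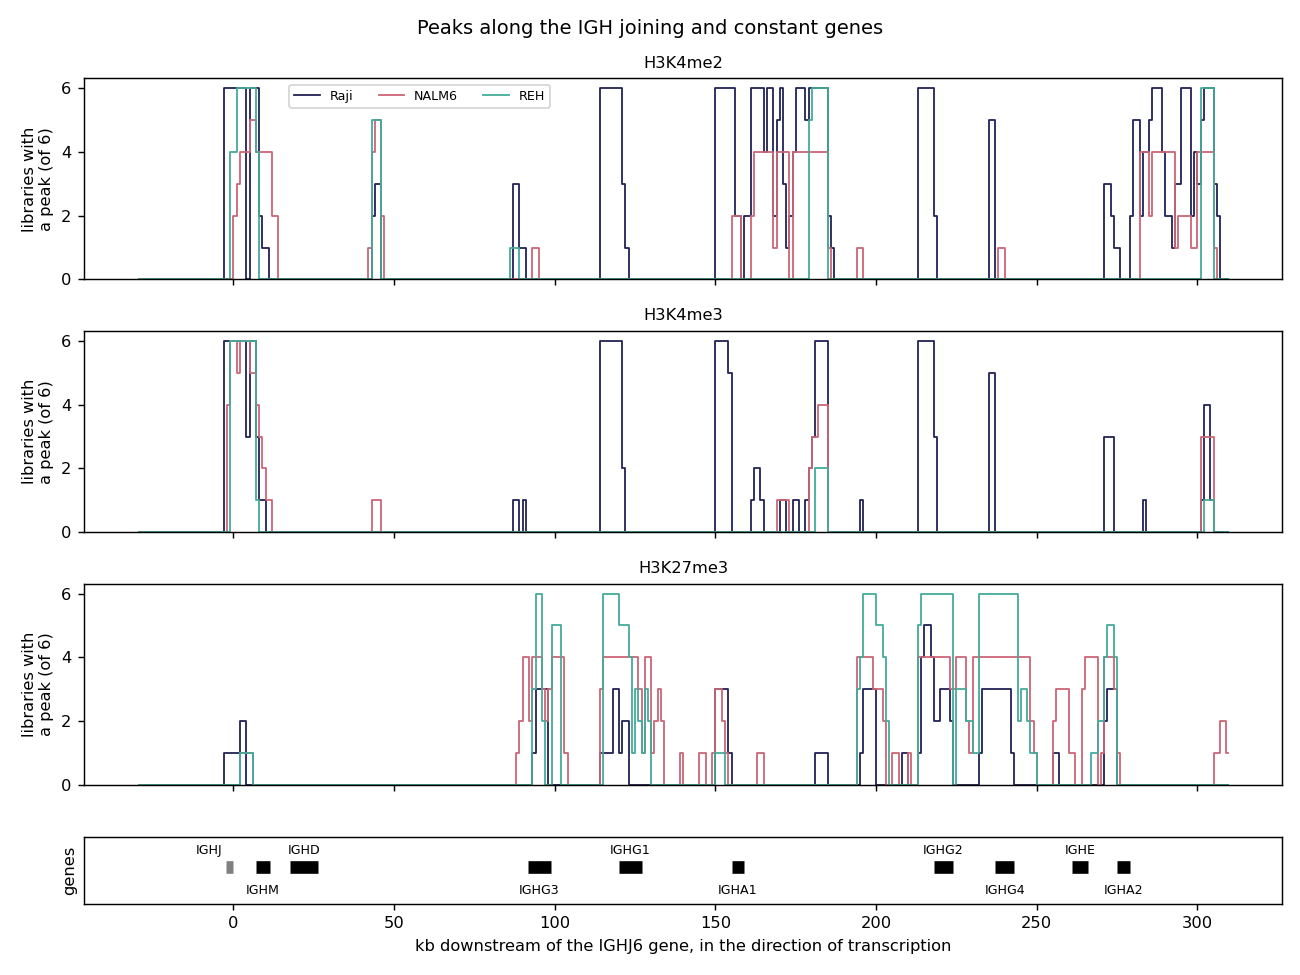
Number of libraries of 6 with a peak (y axis) in 1 kb steps along the IGH joining and constant genes (x axis, kb downstream of IGHJ6 in the direction of transcription), for each mark and line, with the genes drawn beneath. All lines share peaks between IGHJ and IGHM, while peaks 5′ of IGHG1 and IGHA1 in H3K4me2 and H3K4me3 are seen in 6 of 6 Raji libraries and in 0 of 6 of the others.

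The constant genes 3′ of IGHM set Raji apart. IGHG1, the gene of the IgG1 heavy chain, had an H3K4me2 peak over it in 6 of 6 Raji libraries and 0 of 12 others, and likewise for H3K4me3. Its H3K4me2 signal was 3.44, 2.35 and 3.06 median peaks in untreated Raji and 3.14, 4.19 and 2.64 with bryostatin. IGHA1, the IgA1 gene, had H3K4me2 in 6 Raji, 2 NALM6 and 0 REH libraries, at 5.19 to 11.2 median peaks in Raji and at most 0.823 in NALM6. It had no H3K4me3 peak over the gene in any library, but the 6 kb 5′ of it, where its switch region lies, had both marks in 6 of 6 Raji libraries and in 0 of 12 others.

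The same was seen for the 6 kb 5′ of IGHG1 and of IGHG2, with both marks in 6 of 6 Raji and 0 of 12 other libraries. In the 6 kb 5′ of IGHG4 both marks were in 5 Raji libraries and 0 others. In the 6 kb 5′ of IGHG3, H3K4me2 was in 3 Raji and 1 REH library, 5′ of IGHA2 in 3 Raji libraries, and 5′ of IGHE, the IgE gene, in none. The H3K4me3 region 5′ of IGHG1 and reaching into it (chr14:105742091-105749120) had 3.47, 2.19 and 2.4 median peaks in untreated Raji and 1.7, 2.15 and 1.8 with bryostatin, the region at IGHG2 (chr14:105644621-105649640) 1.09, 0.676 and 0.644 against 0.527, 0.786 and 0.567. Both were at 0 in all NALM6 and REH libraries. IGHG2 itself had H3K4me2 in 1 and H3K4me3 in 2 Raji libraries, IGHA2 had H3K4me2 in 1 Raji library, and IGHG3 and IGHG4 had it in 1 NALM6 library. IGHD, which encodes the IgD heavy chain, had no peak over it in any library of any mark. The IGHG genes are near copies of each other, so reads of one may be counted in another.

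H3K27me3 lay over the IGHG genes in libraries of all 3 lines. IGHG1, IGHG2, IGHG3 and IGHG4 each had an H3K27me3 peak in 6 of 6 REH, 4 of 6 NALM6 and 3 of 6 Raji libraries, and IGHE in 4 NALM6 libraries only. The Raji libraries without these peaks, untreated replicate 1 and bryostatin replicates 1 and 2, had 819, 3424 and 2778 H3K27me3 peaks in all. Those with them, untreated replicates 2 and 3 and bryostatin replicate 3, had 24143, 73265 and 101702. In the 6 kb 5′ of IGHG2, H3K27me3 was in 5 Raji, 4 NALM6 and 6 REH libraries. For the 6 kb 5′ of IGHG1 the counts were 3, 4 and 6, and 5′ of IGHA1 they were 3, 3 and 1. Over IGHG1 the signal was 5.06, 1.54 and 2.18 median peaks in untreated REH, 0, 15.3 and 5.4 in untreated NALM6 and 0, 2.63 and 0.532 in untreated Raji. Over IGHG4 it was 24.3, 11.2 and 15.5 in REH, 0, 35.3 and 13.7 in NALM6 and 0, 2.74 and 6.73 in Raji. The zeros belong to NALM6 replicate 1 and Raji replicate 1, which had no H3K27me3 peak in any of the 3 loci, and the lines' values otherwise overlapped in part. Depth and peak number were low in untreated Raji replicate 1 (5.12 M reads, 819 peaks). Untreated replicates 2 and 3 had 22.9 M and 32.4 M reads in Raji and 19.1 M and 19.2 M in NALM6, so depth did not move with every value. The part of depth and peak number was not tested. In bulk libraries, fewer marked cells and less mark per cell cannot be told apart, which bears on Raji, where IGHG1 had peaks of all 3 marks.

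The 3′ enhancers of IGH lie downstream of the 2 IGHA genes. Between IGHG2 and IGHA1, downstream of IGHA1, H3K4me2 was found in 6 Raji, 4 NALM6 and 6 REH libraries and H3K4me3 in 6, 4 and 2. The H3K4me2 region (chr14:105677101-105703780) had 16.4, 10.6 and 11.8 median peaks in untreated Raji. Untreated NALM6 had 0, 9.41 and 14 there, and untreated REH 4, 3.46 and 4.04. The part shared by Raji and REH, 15485 bp from IGHA1 (chr14:105678531-105688510), was at 5.12, 5.94 and 5.18 against 2.66, 2.84 and 3.36 median regions, a log2 difference of 0.88 ± 0.12 (SE, n = 3 against 3, limma adjusted p = 4.09e-05). By the maximum signal of the region the difference was 0.06 (adjusted p = 0.815). In the 50 kb downstream of IGHA2, H3K4me2 was in 6, 4 and 6 libraries and H3K4me3 in 4, 3 and 1.

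**Figure D3:**
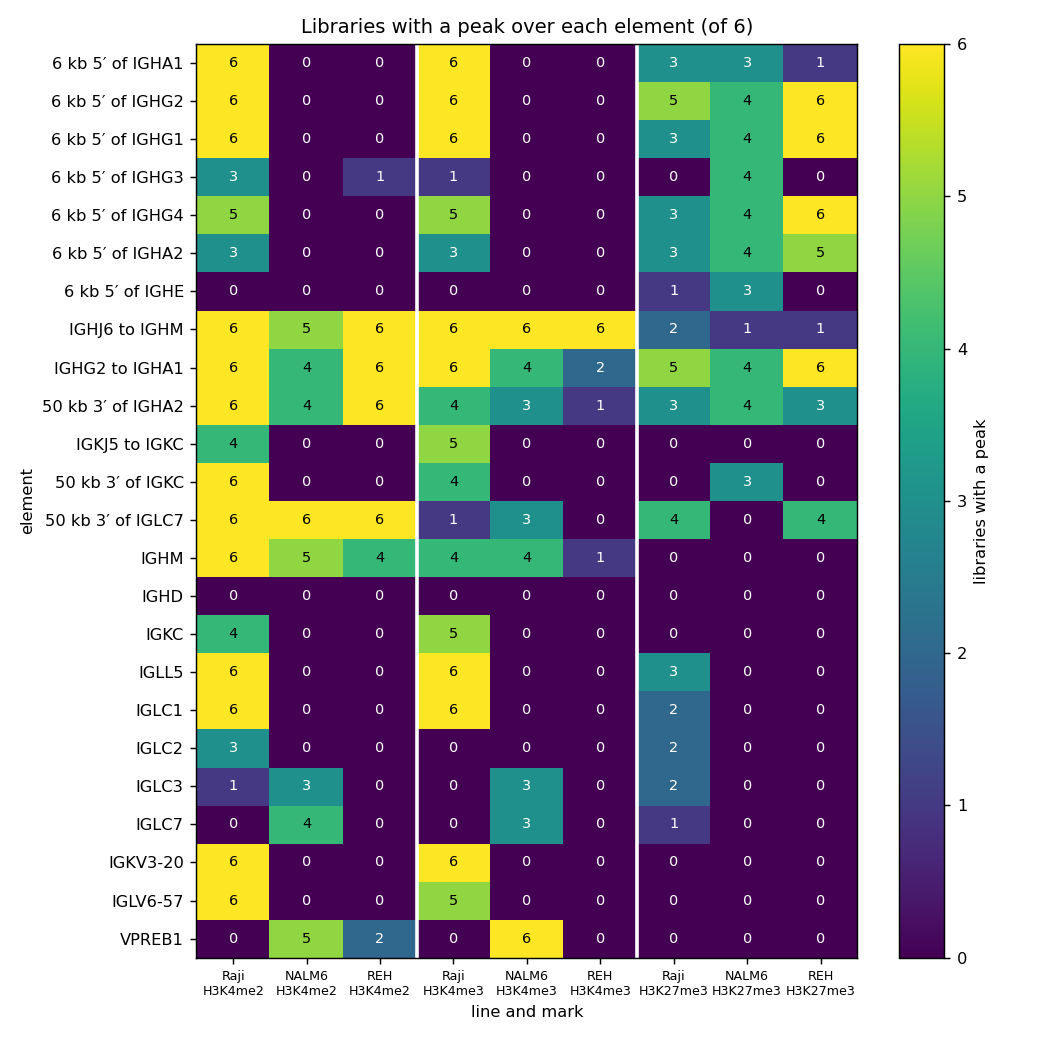
Number of libraries of 6 with a peak (numbers and colour) over each named element (rows) for each line and mark (columns). Elements 5′ of IGHA1, IGHG1 and IGHG2 and at IGKV3-20 show 6 in Raji and 0 in NALM6 and REH for H3K4me2 and H3K4me3, the joining to constant stretch of IGH shows 5 or 6 in all lines for those marks, and VPREB1 shows 0 in Raji.

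Among the 27 D segments, which supply the middle of the loop in which heavy chains differ most, 4 had an H3K4me2 peak in all 6 Raji libraries (IGHD6-13, IGHD5-12, IGHD1-7 and IGHD6-6), and 0 had one in any NALM6 or REH library. IGHD1-7 and IGHD6-6 shared a Raji H3K4me3 region (chr14:105907631-105912140) that also covers the noncoding gene FAM30A, at 1.05, 1.19 and 1.15 median peaks untreated and 1.07, 1.72 and 1.42 with bryostatin. It was at 0 in the other lines. The 6 IGHJ genes all had both marks in every Raji library, IGHJ6 and IGHJ5 had H3K4me3 in every NALM6 library, and IGHJ6 alone had it in every REH library.

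Of 49 IGH V segments, which encode most of the heavy chain's variable domain, 9 had H3K4me2 in all Raji libraries: IGHV3-23, IGHV2-26, IGHV3-30, IGHV4-31, IGHV4-34, IGHV4-59, IGHV1-69, IGHV1-69D and IGHV2-70. The highest of those with no peak in either other line was IGHV4-31, with a mean of 2.05 median peaks. No IGH V segment had H3K4me2 in every library of NALM6 or of REH, with 0 to 10 and 0 to 3 segments per library. H3K4me3 was rarer, with 0 to 7 segments per Raji library and none in all 6. Since many V segments are near copies, single segments such as IGHV1-69 and IGHV1-69D cannot be separated with certainty.

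In IGK, 32 of 37 H3K4me2 regions (86.5%) were found in Raji libraries alone, where 29.3% of all regions of the genome were. IGKV3-20, a kappa V segment, had both marks in 6 of 6 Raji libraries and 0 of 12 others. Its H3K4me2 region (chr2:89142281-89147840) had 1.37, 0.529 and 1.3 median peaks untreated and 1.72, 1.68 and 0.706 with bryostatin, and its H3K4me3 region (chr2:89142531-89145040) 0.509, 0.299 and 0.333 and then 0.348, 0.284 and 0.23. IGKV2D-29 and IGKV1D-8 also had H3K4me2 in every Raji library. IGKC, the only kappa constant gene, had H3K4me2 in 4 and H3K4me3 in 5 of 6 Raji libraries, at no more than 1.58 and 0.329 median peaks, and in none of the other lines. The stretch from IGKJ5 to IGKC, with the kappa intronic enhancer, had the same counts, and the 50 kb 3′ of IGKC had H3K4me2 in 6 and H3K4me3 in 4 Raji libraries.

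One IGK region was stronger in REH. It lay far from any V segment of the list (252762 bp from IGKV2-40), over the noncoding gene ENSG00000290846 (chr2:89583191-89586710), at 0.508, 0.501 and 0.397 median regions in Raji and 1.54, 1.41 and 1.61 in REH, a log2 difference of -1.70 ± 0.14 (SE, n = 3 against 3, limma adjusted p = 7.49e-07). In H3K4me3 the difference was -1.88 ± 0.22 (adjusted p = 7.72e-05), and NALM6 had no peak there. By mean signal per base the H3K4me2 call was lost (-0.65, limma adjusted p = 0.0617), while that of H3K4me3 stayed (-1.04, adjusted p = 0.00383). A region 5116 bp from IGKV6D-21 was lower in Raji than in REH as well (log2 -0.46, adjusted p = 0.0217), a call lost by mean signal per base (-0.04, adjusted p = 0.883).

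In IGL, the genes from IGLV3-1 to IGLC2 had active marks in Raji alone. IGLL5 had H3K4me2 and H3K4me3 in 6 of 6 Raji libraries and in 0 of 12 others. Its H3K4me2 was 10.1, 6.4 and 11 median peaks untreated and 15.3, 13.3 and 10.9 with bryostatin. This was the highest mean H3K4me2 signal of all genes called in every Raji library and in no library of another line. Its H3K4me3 was 5.05, 3.75 and 4.06 untreated and 4.77, 4.24 and 3.54 with bryostatin. IGLC1, a lambda constant gene, and IGLJ1 shared the next peak, with 4.17 to 8.17 median peaks of H3K4me2 and 0.969 to 1.72 of H3K4me3, again in 6 Raji and 0 other libraries. IGLC2 followed with H3K4me2 in 3 Raji libraries. The last constant genes were marked in NALM6 instead. IGLC7 had H3K4me2 in 4 and H3K4me3 in 3 of 6 NALM6 libraries, at 4.05 to 4.81 and 1.1 to 1.39 median peaks where called, and in no library of Raji or REH. IGLC3 had both marks in 3 NALM6 libraries, and H3K4me2 in 1 Raji library. H3K27me3 lay over IGLL5 in 3, IGLC1 in 2 and IGLC2 in 2 Raji libraries, in each case with untreated replicate 3, which had 73265 H3K27me3 peaks in all.

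Of 37 IGL V segments, 9 had H3K4me2 in every Raji library: IGLV4-69, IGLV8-61, IGLV4-60, IGLV6-57, IGLV5-45, IGLV7-43, IGLV3-9, IGLV2-8 and IGLV3-1. IGLV6-57 (region chr22:22195011-22199320) had 4.18, 2.1 and 2.87 median peaks untreated and 2.45, 2.06 and 1.48 with bryostatin, and 0 in both other lines. IGLV4-69, at the 5′ end of the locus, was the one V segment with H3K4me2 in every REH library. Its region was at 2.48, 2.58 and 2.01 median regions in Raji and 0.785, 0.815 and 1.02 in REH, a log2 difference of 1.44 ± 0.14 (SE, n = 3 against 3, limma adjusted p = 3.02e-06), which was 0.05 (adjusted p = 0.891) for the mean signal per base.

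The 3′ enhancer side of IGL carried the 1 H3K4me2 region found in all 18 libraries. Beyond IGLC7, H3K4me2 was called in 6 of 6 libraries of each line, with its strongest signal at a median of 5.8, 5.8 and 5.79 kb downstream in Raji, NALM6 and REH. Untreated signal (chr22:22920991-22936810) was 3.11, 1.39 and 2.43 median peaks in Raji. It was 2.06, 4.05 and 5.87 for NALM6 and 0.701, 0.56 and 0.433 for REH, whose libraries lay below all others. By limma NALM6 was above REH by 3.05 ± 0.34 on the log2 scale (adjusted p = 0.00248) and Raji was above REH by 1.74 ± 0.16 (adjusted p = 1.5e-06), each n = 3 against 3. The regions tested differed. Both comparisons with NALM6 used chr22:22921391-22936740, which, like the stretch of the untreated values above, also covers IGLJ7 and IGLC7. Raji and REH were compared over chr22:22927461-22936440, which holds no member. The NALM6 differences therefore include signal over IGLC7. Raji was below NALM6 by a log2 difference of -1.26 ± 0.34 (adjusted p = 0.0324), or -1.72 without NALM6 untreated replicate 1 (adjusted p = 8.87e-06) and -1.25 without Raji untreated replicate 1 (adjusted p = 0.122). That call was lost by maximum signal (-0.68, adjusted p = 0.185), by mean signal per base (-0.24, adjusted p = 0.644) and with no centring (-0.09, adjusted p = 0.975). So was the call of NALM6 against REH, at 1.24 (adjusted p = 0.0637), 0.34 (adjusted p = 0.388) and 1.58 (adjusted p = 0.639) in that order. Called length moved with the Raji and REH difference, which was 0.02 (adjusted p = 0.966) for the mean signal per base. The window of the strongest signal, printed above, held neither the octamer nor the E-box CAGGTG on either strand, which stood in 1.77% and 20.6% of RefSeq promoters.

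VPREB1, which encodes the V-like part of the surrogate light chain and lies among the IGL V segments, is not a member. Its H3K4me3 region (chr22:22243231-22248540) had 1.69, 3.28 and 3.65 median peaks in untreated NALM6 and 3.44, 3.08 and 2.28 with bryostatin, and 0 in all Raji and REH libraries. H3K4me2 around it (chr22:22241371-22251240) was found in both leukemia lines, at 0.839, 2.42 and 3.58 in untreated NALM6 and 1.37, 0.619 and 0.771 in untreated REH, and in no Raji library.

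REH had a block of H3K27me3 over IGL V segments. IGLV9-49, IGLV5-48, IGLV1-47, IGLV7-46, IGLV5-45, IGLV1-44, IGLV1-40, IGLV5-37 and IGLV1-36 had an H3K27me3 peak in 6 of 6 REH libraries. The region over IGLV7-46, IGLV5-45 and IGLV1-44 (chr22:22365341-22392890) had 36.3, 18.4 and 29.2 median peaks in untreated REH and 13.9, 37.7 and 51.5 with bryostatin. In NALM6 it was 0, 1.62 and 0 untreated and 0, 2.4 and 3.38 with bryostatin, and in Raji it was 0 in all but 1 library, at 0.624. REH was above every other library there. The next region, over IGLV1-40, IGLV5-37 and IGLV1-36 (chr22:22396481-22433480), was shared with both other lines. It was at 61.2, 31.2 and 47.2 in untreated REH, at 0, 19.4 and 5.89 in untreated NALM6 and at 0, 1.68 and 9.53 in Raji. IGLV5-45 and IGLV7-46 had no H3K27me3 peak over the gene in any Raji or NALM6 library.

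The loci were then compared as wholes, by relative signal density. This is the called signal per base of a locus divided by that of the genome in the same library, so that 1 is the genome's average. Lines were compared over 6 against 6 libraries by an exact two-sided permutation test within treatments, whose smallest p is 0.005, adjusted over 27 tests. IGL H3K4me2 was 6.33 ± 0.973 in Raji (SD, n = 6), 2.57 ± 1.03 in NALM6 and 1.08 ± 0.232 in REH. The differences were 5.24 for Raji minus REH and 3.76 for Raji minus NALM6 (exact permutation test, adjusted p = 0.015 for each), and 1.49 for NALM6 minus REH (adjusted p = 0.0368). IGK H3K4me2 was 1.25 ± 0.508 in Raji and 0.414 ± 0.0464 in REH, and no NALM6 library had a peak. All 3 IGK differences passed (exact permutation test, adjusted p = 0.015), but with equal peak numbers from each library Raji minus REH was 0.00237 and did not.

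IGH H3K4me2 was 7.32 ± 0.847 in Raji and 3.69 ± 0.337 in REH, a difference of 3.64 (exact permutation test, n = 6 against 6, adjusted p = 0.015). NALM6, at 4.88 ± 3.41, held replicates at 0.278 and 0.833 and the others at 6.34 to 8.13, and neither difference passed with all replicates (adjusted p = 0.199 against Raji, 0.522 against REH). Without replicate 1 NALM6 was 3.36 above REH (adjusted p = 0.0142) and 0.279 below Raji (adjusted p = 0.574). For H3K4me3, IGH was 3.24 ± 0.394 in Raji and 2.42 ± 0.383 in REH, a difference of 0.821 (exact permutation test, adjusted p = 0.015), and 7.75 ± 6.05 in NALM6. NALM6 minus REH was 5.33 (adjusted p = 0.135), or 8.56 without replicate 1 (adjusted p = 0.0142), and Raji minus NALM6 was -4.51 (adjusted p = 0.135), or -7.74 (adjusted p = 0.0142). NALM6 bryostatin replicate 3 stood highest at 17.5, with 4389 H3K4me3 peaks and 5.41 M reads. With only that library left out the differences were 3.38 (NALM6 minus REH) and -2.56 (Raji minus NALM6). By share of called length Raji minus NALM6 turned to 1.64 (exact permutation test, adjusted p = 0.0193).

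IGL H3K4me3 was 2.19 ± 0.0718 in Raji and 0.984 ± 0.0505 in REH, a difference of 1.2 (exact permutation test, n = 6 against 6, adjusted p = 0.015). In NALM6 it was 2.09 ± 1.13, and Raji minus NALM6 was 0.0949 (adjusted p = 0.841) with replicate 1 and -0.632 (adjusted p = 0.0142) without it, so the sign of that difference rested on replicate 1. IGK H3K4me3 was low throughout, at 0.126 (Raji), 0.0262 (NALM6) and 0.122 (REH). Raji and REH differed by 0.00427 (exact permutation test, adjusted p = 0.841), and NALM6 lay below both (adjusted p = 0.0415 for each).

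For H3K27me3 the mean of IGL was highest in REH. REH had 5.64 ± 1.43 (SD, n = 6), NALM6 2.79 ± 2.2 and Raji 1.74 ± 1.22. Raji minus NALM6 was -1.06 (exact permutation test, adjusted p = 0.437), or -2.45 without NALM6 replicate 1 (adjusted p = 0.027). Raji minus REH was -3.9 (exact permutation test, adjusted p = 0.015) and NALM6 minus REH -2.84 (adjusted p = 0.0368), or -1.45 without NALM6 replicate 1 (adjusted p = 0.0939). IGH H3K27me3 was 1.76 (Raji), 2.76 (NALM6) and 1.69 (REH), and no difference passed with all replicates, while without NALM6 replicate 1 NALM6 was above REH by 2.44 and above Raji (-2.37 for Raji minus NALM6), each with adjusted p = 0.0142.

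**Figure D4:**
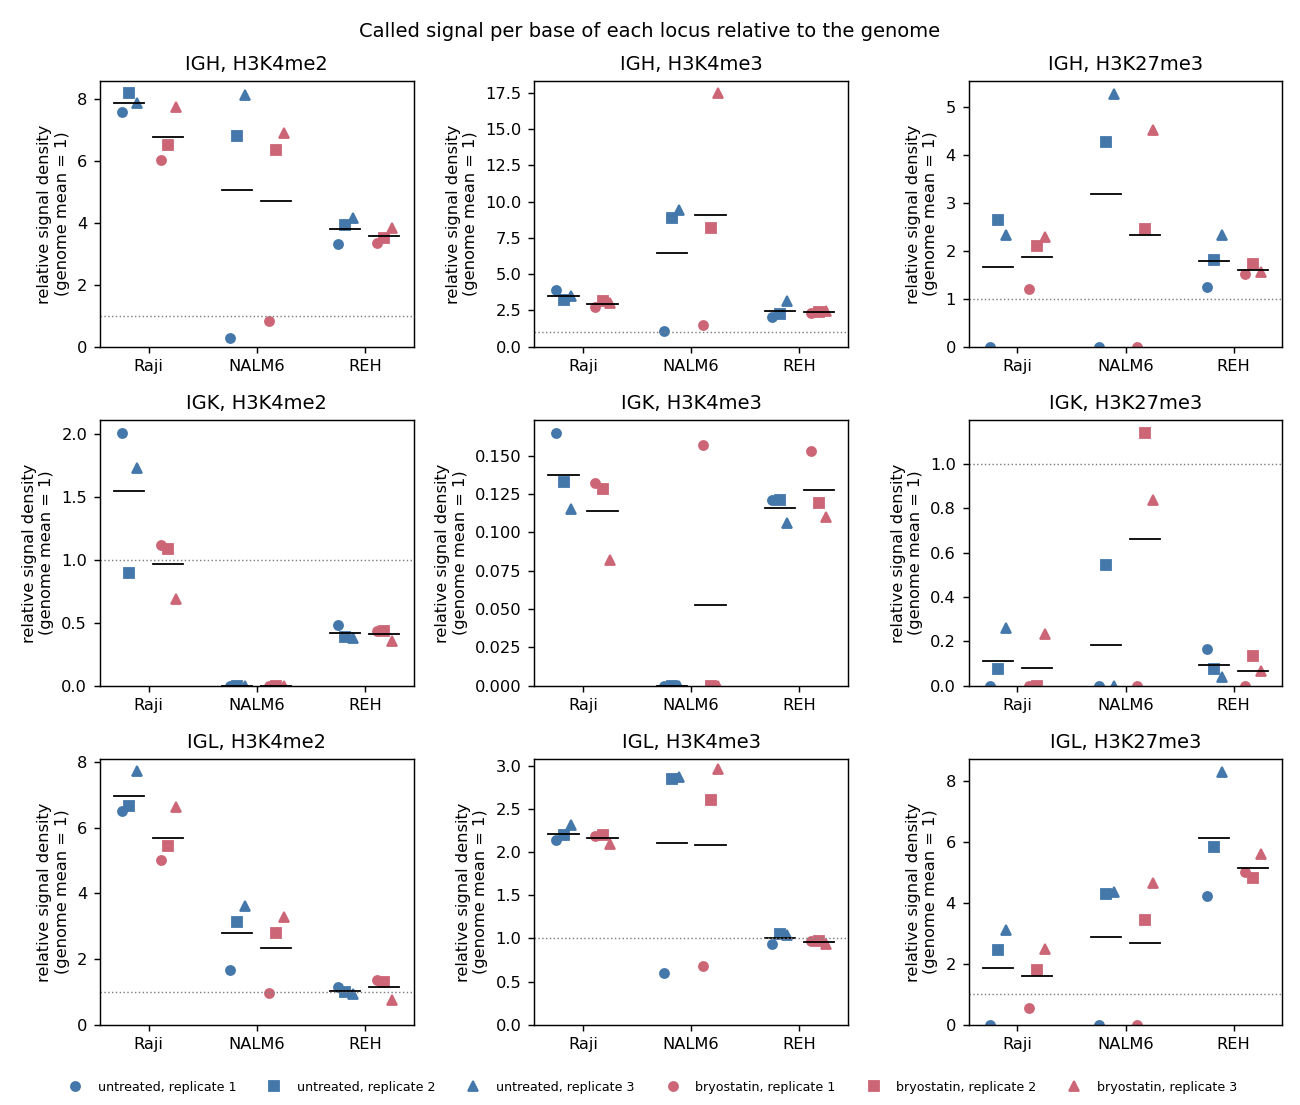
Relative signal density (y axis, called signal per base of the locus over that of the genome, dotted line at 1) of IGH, IGK and IGL for each mark, by line (x axis), with 1 point per library, shapes for replicates, colours for treatment and bars at the mean of 3 libraries. Raji is highest for H3K4me2 in IGK and IGL, REH is highest on average for H3K27me3 in IGL, and NALM6 replicate 1 lies below the other NALM6 replicates for H3K4me2 and H3K4me3 in IGH and IGL.

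Line differences by region could be fitted only where all 6 untreated libraries of a pair had a peak, which leaves out the regions of a single line. For H3K4me2, 7 of 10 immunoglobulin regions differed between Raji and REH (4 higher, 3 lower in Raji), where 46.8% of all regions of the genome did, 1 of 1 between Raji and NALM6 (genome 18.9%) and 2 of 3 between NALM6 and REH (genome 11.4%). The second of the NALM6 and REH regions lay 16795 bp from IGHD (log2 0.78, adjusted p = 0.0119), a call lost by maximum signal (0.36, adjusted p = 0.234) and mean signal per base (0.38, adjusted p = 0.41), while with no centring the direction turned (-0.69, adjusted p = 0.724). For H3K4me3, 2 of 4 differed between Raji and REH (genome 51.3%), 0 of 2 between Raji and NALM6 (genome 20.2%) and 0 of 2 between NALM6 and REH (genome 7.15%), where limma also gave 0 of these regions an unadjusted p under 0.05 in the last 2 comparisons. Beside those already described, the called regions lay 21363 bp (H3K4me2, log2 0.47, adjusted p = 0.0044) and 27023 bp (H3K4me3, log2 0.26, adjusted p = 0.028) from IGHV7-81, higher in Raji than in REH. Both calls were lost by maximum signal (0.22 and 0.13, adjusted p = 0.356 and 0.545), by mean signal per base (0.25 and 0.48, adjusted p = 0.308 and 0.0507) and with no centring (0.21 and 0.08, adjusted p = 0.428 and 0.906), and that of H3K4me3 with quantile normalization (0.21, adjusted p = 0.0661). With no centring the median of all H3K4me2 regions shifted by -0.25 on the log2 scale for Raji and REH, by 1.19 for Raji and NALM6 and by -1.46 for NALM6 and REH, and the differences above are relative to that median. No H3K27me3 region of the loci had a peak in all 6 libraries of a pair.

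Bryostatin changed 1 immunoglobulin region by the limma test, in REH. It was the H3K4me2 region downstream of IGLC7 (chr22:22927251-22933510, 4217 bp from the gene), on the 3′ enhancer side of IGL and covering the window printed above. Its total signal was 0.468, 0.462 and 0.364 times the library's median region in untreated REH and 1.21, 1.38 and 0.842 with bryostatin. Every treated library was above every untreated one, and the log2 change was 1.39 ± 0.17 (SE, n = 3 against 3, limma adjusted p = 5.18e-04, or 1.83e-05 with replicate number as a block).

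The change was one of breadth and height together. The called length was 2620, 1610 and 1620 bp untreated and 6020, 6190 and 5200 bp with bryostatin. The maximum signal rose by 1.09 on the log2 scale (adjusted p = 1.54e-05), and the mean signal per called base was -0.12 (adjusted p = 0.967). Mapped reads were 18.8, 15.4 and 13.7 M untreated and 20.2, 18.2 and 22.8 M with bryostatin, so that depth moved with treatment in part, and its share in the result was not tested. In REH, 1.45% of all H3K4me2 regions changed, of which 153 rose and 4 fell, and 1 of 11 immunoglobulin regions did.

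**Figure D5:**
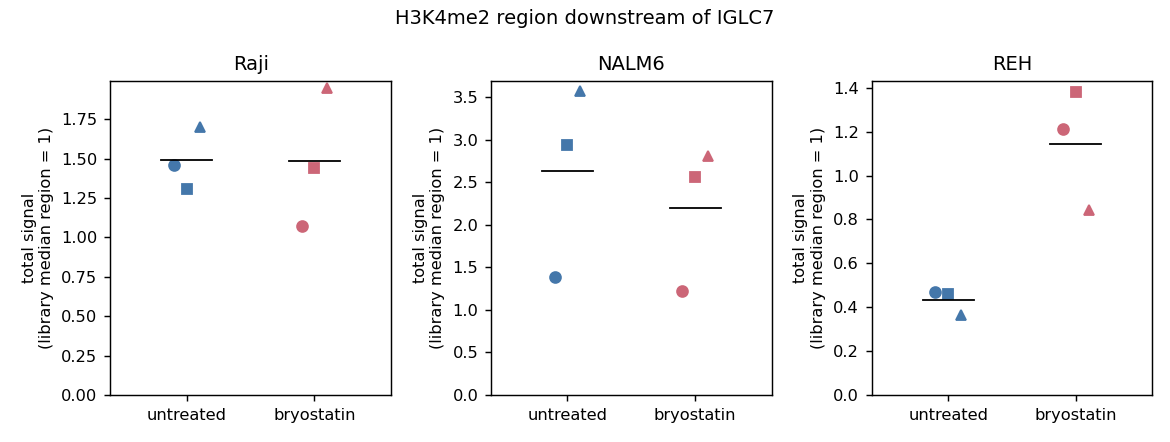
Total H3K4me2 signal of the region downstream of IGLC7 (y axis, library's median region = 1) in untreated and bryostatin libraries (x axis) of each line, with 1 point per library, shapes for replicates and bars at the mean of 3. The 3 treated REH libraries lie at 0.842 to 1.38, above the untreated ones at 0.364 to 0.468, while in Raji and NALM6 the groups overlap. The NALM6 region is wider and also covers IGLJ7 and IGLC7.

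In Raji the same stretch (chr22:22927311-22936760) was at 1.46, 1.31 and 1.70 untreated and 1.07, 1.44 and 1.95 with bryostatin, a log2 change of -0.04 ± 0.21 (SE). In NALM6 the merged region was wider and also covered IGLJ7 and IGLC7. That region was at 1.39, 2.94 and 3.57 untreated and 1.22, 2.56 and 2.81 with bryostatin, a change of -0.25 ± 0.44. The difference between the lines was not tested.

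No other immunoglobulin region passed without the block. For H3K4me2, 0 of 44 regions in Raji passed, where 0% of all regions did (11 of the 44 and 626 of 9316 had an unadjusted limma p under 0.05), and 0 of 1 in NALM6 (genome 0%, with 56 of 4128 regions at an unadjusted p under 0.05). For H3K4me3, 0 of 16 passed in Raji (genome 0.155%), with 4 of the 16 and 511 of 9040 regions at an unadjusted limma p under 0.05. In NALM6 0 of 3 passed (genome 0%, 7 of 3838 regions at an unadjusted p under 0.05). In REH 0 of 4 passed (genome 1.67%), with 1 of the 4 and 763 of 7238 regions at an unadjusted p under 0.05. For H3K27me3, 0 of 14 passed in REH (genome 0%, 216 of 8324 at an unadjusted p under 0.05), and none could be fitted in the other lines. The median log2 change of the 44 Raji H3K4me2 regions was -0.24, against -0.03 over all regions tested. With no centring the median of all regions shifted by 0.21 (H3K4me2) and 0.25 (H3K4me3) in Raji.

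The Raji region nearest to the threshold was that of IGLV6-57, at 1.96, 1.98 and 2.00 untreated and 0.935, 1.05 and 1.21 with bryostatin (log2 -0.90 ± 0.15, limma adjusted p = 0.06), chosen here after its values were seen. Replicate number as a block, which the libraries' own correlations backed in these groups, added 2 calls. The share of all regions called with the block is not given here, so these calls stand without a background. The IGLV4-69 region of REH was at 0.788, 0.819 and 1.03 untreated and at 0.666, 0.617 and 0.507 with bryostatin (log2 -0.56, adjusted p = 0.0594 without and 0.0478 with the block). The Raji H3K4me3 region of IGHD1-7 and IGHD6-6 went from 0.649, 1.05 and 1.04 to 0.833, 1.48 and 1.42 (log2 0.43, adjusted p = 0.897 without and 0.0381 with the block), higher in each replicate pair. Without Raji untreated replicate 1 and without the block that change was 0.21 (adjusted p = 0.911).

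Of the other genes of antibody assembly and of its control, 29 were listed, and 23 (Raji), 15 (NALM6) and 18 (REH) had an H3K4me3 start region that could be fitted. By limma without the replicate block, 0 rose or fell in Raji and NALM6 (2 of 23 and 0 of 15 at an unadjusted p under 0.05). In REH 0 rose and 4 fell by the same fit (6 of 18 at an unadjusted p under 0.05), where 1.67% of all regions changed. The 4 were VPREB3 (log2 -0.84, limma adjusted p = 1.83e-04), IGLL1 (-0.73, adjusted p = 0.00313), DNTT (-0.61, adjusted p = 0.00181) and CD79B (-0.38, adjusted p = 0.0414). IGLL1 is a surrogate light chain gene of precursor B cells. DNTT is the polymerase that adds bases at the joints, and CD79B is a signalling chain of the B cell receptor. In NALM6 IGLL1 was at -0.22 ± 0.49 and VPREB3 at 0.18 ± 0.57, and in Raji VPREB3 was at -0.59 ± 0.1 (adjusted p = 0.0926).

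No source states whether the replicates were separate cultures, so p-values measure the spread between these libraries, which may be technical. With 3 against 3 libraries a permutation test of a single treatment difference could not go below 0.1, so that treatment effects were tested only by limma across all regions.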

How the data were processed

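CUT&Tag libraries were made for H3K4me2, H3K4me3 and H3K27me3. Per the labels and the study's methods, the authors trimmed reads (Trim Galore), aligned them to hg38 (Bowtie2) and called peaks per library with SEACR in stringent mode. Versions and the treatment of multiply mapping reads are not given in the sources used here. The deposited files list each peak's position and its total and maximum signal, a coverage scaled to RPKM in 10 bp bins. In 6 libraries (NALM6 replicate 1) the deposited signal had another scaling that is not given in the sources used here. Signal steps in the other 48 libraries fell within 0.024 of whole multiples, which gave 5.12 to 47.9 M mapped reads per library. The depth limits which peaks could be called.

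The members and lists were chosen with earlier results of these data known. A gene had a peak when at least 1 bp overlapped. Peaks of the libraries compared were merged into regions. Regions called in all 6 libraries were tested with limma 3.58.1 (R 4.3.3, eBayes with trend) on log2 total signal, centred on the library median, with no pseudocount, and p-values were Benjamini-Hochberg adjusted over all regions of the genome at 0.05. Line comparisons used untreated libraries. Locus densities used exact permutation tests. The scripts were tested on simulated data.

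Same-numbered untreated and treated libraries were taken as pairs where every correlation of their deviations from the group means was over 0.1. This held for H3K4me2 in NALM6 (0.4 to 0.45) and REH (0.13 to 0.21), for H3K4me3 in Raji (0.48 to 0.54), NALM6 (0.63 to 0.68) and REH (0.18 to 0.31), and for H3K27me3 in NALM6 (0.65 to 0.66), and for no line comparison. The pairing comes from these correlations and not from the labels. Genes named were every constant gene, IGLL5, V, D and J genes with a peak in all 6 libraries of a line and none of another by signal, called regions, the enhancer stretches and a list of pathway genes. Alternatives were other region measures, scalings, filters, variance models and peak numbers, the replicate block, and leaving out libraries.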

Additional observations from a re-analysis of the deposited data

How the results depend on the processing

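Of 129 alternatives to the 9 bryostatin counts, 124 left the count within 1.5 times and 5 moved it. The REH H3K4me2 count of 1 became 0 by mean signal per base and among regions above the median signal, and 2 with no centring and with the replicate block. The Raji H3K4me3 count of 0 became 1 with the block. Leaving out NALM6 replicate 1 of both treatments, an alternative chosen after seeing the data, gave 0 calls among 17, 5 and 23 regions. The block changed no other bryostatin count.

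Of 126 alternatives to the line counts, 88 left them within 1.5 times and 38 moved them. For H3K4me2, the Raji and REH count of 7 became 2 by mean signal per base and 4 above the median signal. The Raji and NALM6 count of 1 became 0 by maximum signal, by mean signal per base and with no centring, 9 when 3 libraries sufficed, and 0 to 6 when single libraries were left out. The NALM6 and REH count of 2 became 0 by those same measures and above the median signal, 4 when 3 libraries sufficed and 1 to 7 with libraries left out. For H3K4me3, the Raji and REH count of 2 became 1 by maximum signal, with no centring and with quantile normalization, 0 above the median signal and 1 to 2 with libraries left out, and the counts of 0 became 2 when 3 libraries sufficed, with leave-out ranges of 0 to 4 against NALM6 and 0 to 2 for NALM6 and REH. For H3K27me3, the counts of 0 became 13, 8 and 8 when 3 libraries sufficed (Raji and REH, Raji and NALM6, NALM6 and REH), and reached 0 to 3, 0 and 0 to 6 with libraries left out. In the main setting 65.5%, 21.9% and 62.3% of all H3K27me3 regions tested differed in these pairs, in the same order. The shares of all regions under the other settings are not given here, so these counts are not a result about the loci. The libraries behind the largest counts were untreated NALM6 replicate 1 and, for H3K27me3 of Raji and REH, untreated Raji replicate 1. The cause was not tested beyond that.

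Of 450 alternatives to the 27 density differences, 370 kept direction and side of the threshold, 48 lost the call, 19 gained one and 13 reversed. By share of called length, IGH Raji minus NALM6 was 3.02 for H3K4me2 (adjusted p = 0.0113, exact permutation test) and 1.64 for H3K4me3, reversed from -4.51. In the same setting IGH H3K4me3 NALM6 minus REH was 1.12, IGK H3K4me3 0.264 (Raji minus REH) and -0.132 (NALM6 minus REH), IGL H3K4me3 1.41 and IGL H3K27me3 -0.478 (both NALM6 minus REH). Without other protein-coding genes, IGL H3K4me2 NALM6 minus REH was 1.42. With equal peak numbers, IGH H3K4me3 Raji minus REH was 0.0767, IGK H3K4me2 Raji minus REH 0.00237, IGK H3K4me3 0 for both NALM6 comparisons, and IGH H3K27me3 Raji minus REH reversed to -3.06. With the replicate block the 13 called differences kept their values (3.64, 0.821, 0.841, 1.25, -0.414, 0.0997, -0.0954, 5.24, 3.76, 1.49, 1.2, -3.9 and -2.84), but the smallest adjusted p this allows was 0.0844, so the block could not call them. Between lines the replicate numbers mark no pairs.

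With single libraries or NALM6 replicate 1 left out, H3K4me3 ranged from -7.74 to -2.56 (IGH, Raji minus NALM6), 3.38 to 8.56 (IGH, NALM6 minus REH), -0.00353 to 0.013 (IGK, Raji minus REH), 0.0919 to 0.126 (IGK, Raji minus NALM6), -0.122 to -0.0891 (IGK, NALM6 minus REH), -0.632 to 0.268 (IGL, Raji minus NALM6) and 0.937 to 1.84 (IGL, NALM6 minus REH). For H3K4me2 NALM6 minus REH ranged from 0.545 to 3.36 in IGH and 1.28 to 2.11 in IGL. For H3K27me3 ranges were -0.112 to 0.419 (IGH, Raji minus REH), -2.37 to -0.49 (IGH, Raji minus NALM6), 0.556 to 2.44 (IGH, NALM6 minus REH), -0.0181 to 0.0343, -0.534 to -0.181 and 0.196 to 0.549 (IGK, in that order), -2.45 to -0.684 (IGL, Raji minus NALM6) and -3.22 to -1.45 (IGL, NALM6 minus REH). Reversed values within them were -0.112, -0.0476, -0.039 and -0.0246 for IGH H3K27me3, -0.0181, -0.0128 and -0.000892 for IGK H3K27me3, -0.00353 for IGK H3K4me3, and -0.632, -0.204 and -0.188 for IGL H3K4me3.

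Median numbers of genes with a peak fell to 33.5 (Raji), 5 (NALM6) and 1.5 (REH) for H3K4me2, 12 for Raji H3K4me3 and 14 for REH H3K27me3 with only peaks above the library's median. With equal peak numbers they fell to 29, 6 and 2 for H3K4me2, to 11.5 (Raji) and 5 (NALM6) for H3K4me3, and to 0 (Raji), 1 (NALM6) and 4 (REH) for H3K27me3. Within 1 kb of a gene they rose to 33 (Raji) and 4 (REH) for H3K4me3. Raji H3K27me3 libraries ranged from 819 peaks at 5.12 M reads to 101702 peaks at 14.5 M reads, with 73265 peaks at 32.4 M reads in untreated replicate 3. The part of depth and peak number in these counts was not tested.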
